A study of Bos indicus and Bos taurus with 17 samples.

Results

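The genes described are those of the milk fat globule membrane and of droplet secretion, 9 genes chosen for their role in the release of milk lipid. They are XDH, BTN1A1, PLIN2, PLIN3, MFGE8, MUC1, MUC15, CIDEA and CD36. A gene was taken where an entry carried its name, alone or joined to another name. Of the 9 genes, 6 were found, each in 1 entry, among 21631 distinct names. BTN1A1, CIDEA and CD36 were not found among the names, and 0 names started with BTN, so the butyrophilins were not analysed here. The 9 genes were chosen by role and not by a rule on their values, though earlier results of these data were known.

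RNA was sequenced from mammary epithelial cells of milk. The cattle were of the Kashmiri or Jersey breed and were sampled in early (D15), mid (D90) or late lactation (D250). The labels name 9 Kashmiri samples, 3 for each day, and 8 Jersey samples, 3 at D15, 2 at D90 and 3 at D250. No treatment is named, the lactation number was 2 or 3, and samples are not tied to single cows by the labels. The design names 3 cows of each breed for all days, so the days share cows, though it is not labelled which samples do. All samples of a day share a calendar month, so day of lactation and season cannot be told apart. Cells were captured from milk with beads that carried an antibody to keratin 18, a protein of the epithelial cytoskeleton. Levels are given as FPKM, fragments scaled to transcript length and to the number of mapped reads. Every combination of breed and day (6 groups) had 1 value, which covers its cows together. No value per cow was used, so neither an error nor a test could be given, and the difference of any pair of values may lie within the spread between cows.

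In the lactating gland, triglyceride collects in cytoplasmic droplets coated by perilipins, which move to the apical surface of the secretory cell. There the droplet is wrapped in plasma membrane and pinched off as a milk fat globule. Xanthine dehydrogenase, butyrophilin and perilipin 2 are the proteins best known for holding droplet and membrane together, while lactadherin and the mucins coat the outside of the globule.

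The sequences shown are the oligonucleotides used to measure XDH by real time PCR, because XDH had the highest mean level of the genes found. They are written 5′ to 3′, and the PCR values were not analysed here.
XDH forward: actaacacggtgcccaactc
XDH reverse: ctgtagccaaggttgggtgt

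All 6 genes were detected in all 6 groups, with 0 of 36 values at 0 and 1 value under 1 FPKM. In FPKM as given, each gene had its highest level in Kashmiri cattle at D15. XDH, MFGE8, MUC1 and MUC15 had their lowest level in Jersey cattle at D90, while PLIN2 and PLIN3 had theirs in Kashmiri cattle at D90. The ratio of the highest to the lowest level was 5.12 for PLIN3, 6.05 for PLIN2 and 9.50 for XDH. It was much wider for the genes of the outer coat, at 42.4 for MFGE8, 55.0 for MUC1 and 59.0 for MUC15. Relative to epithelial markers of the same group this order was not kept, with 3.68 for MFGE8, 5.61 for XDH, 5.79 for PLIN3, 6.35 for MUC15, 6.82 for MUC1 and 9.07 for PLIN2. In these bulk samples fewer epithelial cells and less RNA per cell cannot be told apart.

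**Figure D1:**
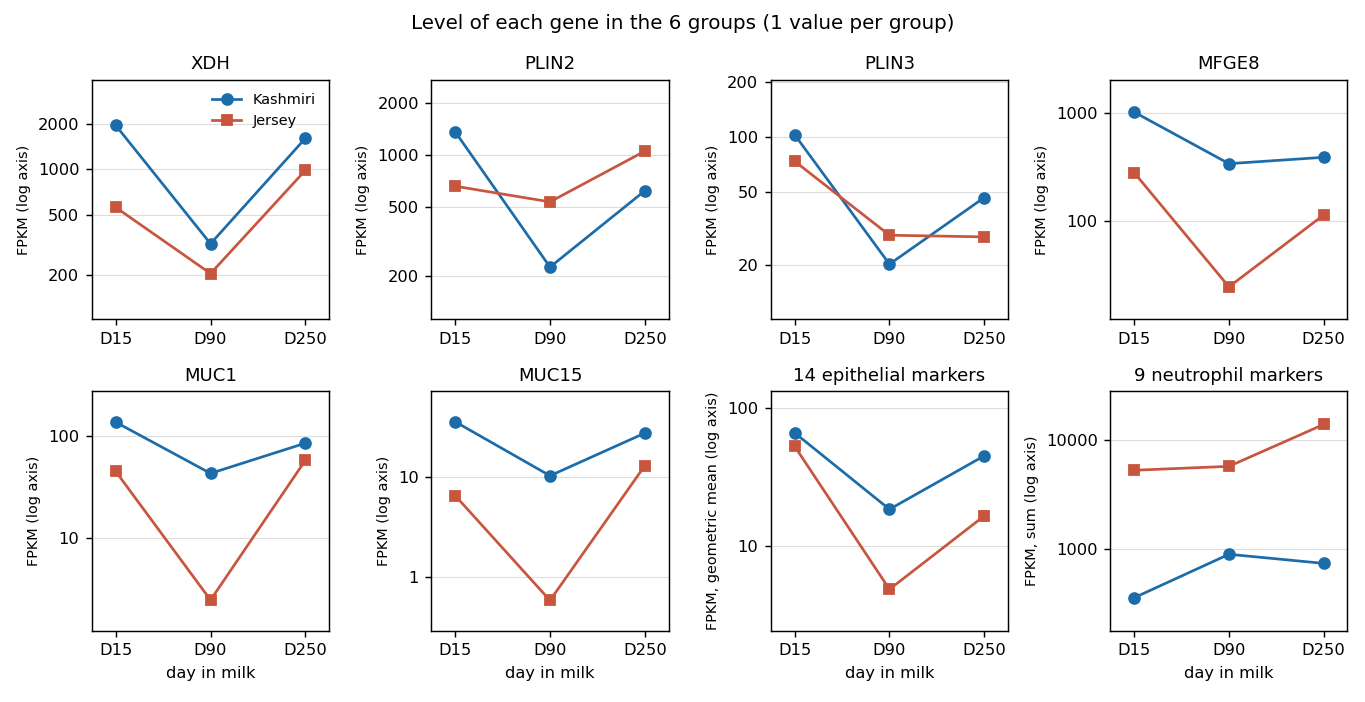
FPKM (log axis) by day in milk for the 6 genes, the geometric mean of 14 epithelial markers and the sum of 9 neutrophil markers; circles are Kashmiri and squares Jersey cattle, 1 value of the authors per group, with no error bars because no value per cow was used. D90 is the lowest day for every gene in both breeds except PLIN3 in Jersey cattle, where D90 (29.0 FPKM) and D250 (28.4 FPKM) are close; the neutrophil sum is higher in Jersey cattle on each day.

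XDH encodes xanthine dehydrogenase, an enzyme of purine breakdown that is also a structural protein of the globule membrane. Kashmiri cattle had 1953 FPKM of XDH at D15, 323 FPKM at D90 and, late in lactation, 1604 FPKM. The Jersey values were 562, 205 and 986 FPKM in the same order of days. Levels were thus lowest at D90 in both breeds, 6.04-fold under D15 in Kashmiri and 2.73-fold under D15 in Jersey cattle. From D90 to D250 the level was 4.96-fold higher in Kashmiri and 4.80-fold higher in Jersey cattle. Jersey levels were lower than Kashmiri levels on each day, by 3.48-fold at D15, 1.57-fold at D90 and 1.63-fold at D250. Relative to epithelial markers, however, the D90 and D250 log2 ratios were 1.28 and 0.75, where the median of all names was 1.62 and 1.11. Even at its lowest, XDH lay above 95.2% of the names with at least 1 FPKM in the same group.

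PLIN2 encodes perilipin 2, the main coat protein of the droplets from which milk fat globules form. Kashmiri levels were 1360, 225 and 620 FPKM in early, mid and late lactation. Jersey levels were 659, 535 and 1051 FPKM. In Kashmiri cattle D90 was thus 6.05-fold under D15, close to the ratio of XDH, whereas in Jersey cattle it was 1.23-fold under D15. The order of the breeds also turned, with Jersey cattle 2.06-fold lower at D15, 2.38-fold higher at D90 and 1.69-fold higher at D250; the last of these came to a log2 ratio of -0.02 when FPKM were rescaled to the sum without the milk protein genes. Over the 3 days PLIN2 stood at 0.696, 0.695 and 0.387 times the level of XDH in the Kashmiri groups, and at 1.17, 2.61 and 1.07 times that level in the Jersey groups. It was therefore below XDH in all Kashmiri groups and above it in all Jersey groups, an order within a group that no common scaling can alter. With 1 value per group, the Jersey ratios of 1.17 and 1.07 may still lie within the spread between cows.

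PLIN3 encodes perilipin 3, a paralog of PLIN2 that moves between the cytosol and the droplet surface. From early to late lactation its Kashmiri levels were 103, 20.1 and 46.7 FPKM. Jersey cattle had 73.8, 29.0 and 28.4 FPKM. D90 was 5.12-fold under D15 in Kashmiri and 2.54-fold under D15 in Jersey cattle. Its level at D250 was 2.32-fold that of D90 in Kashmiri cattle and 0.979 times that of D90 in Jersey cattle, whereas the level of PLIN2 was 2.76 and 1.96 times that of D90. The level of PLIN2 over that of PLIN3 was 13.2, 11.2 and 13.3 for the Kashmiri groups, with 8.93, 18.4 and 37.0 for the Jersey groups.

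MFGE8 encodes lactadherin, a secreted protein that binds phosphatidylserine on the globule and integrins on cells. The Kashmiri groups had 1024, 339 and 388 FPKM in order of day. The Jersey groups had 280, 24.1 and 113 FPKM. The ratio of D15 to D90 was 3.02 in Kashmiri and 11.6 in Jersey cattle. From D90 to D250 it was 1.15-fold higher in Kashmiri and 4.67-fold higher in Jersey cattle. Jersey levels were 3.66-fold lower at D15, 14.0-fold lower at D90 and 3.44-fold lower at D250. MFGE8 made up 35.3% of the summed FPKM of the 6 genes in Kashmiri cattle at D90, where it was the highest of them, and 3.03% in Jersey cattle at D90.

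MUC1 and MUC15 encode transmembrane mucins, heavily glycosylated proteins of the apical membrane that are carried onto the globule. MUC1 had 137, 43.0 and 85.0 FPKM in the Kashmiri groups, in order of day. The Jersey groups had 45.0, 2.48 and 57.8 FPKM. MUC15 was lower throughout, with 34.9, 10.2 and 27.0 FPKM in the Kashmiri groups and 6.48, 0.592 and 12.8 FPKM in the Jersey groups. The Jersey D90 group stood apart for both mucins, 18.1-fold under Jersey D15 for MUC1 and 10.9-fold for MUC15. From there to D250 the level was 23.3-fold higher for MUC1 and 21.6-fold higher for MUC15. The MUC15 folds rest on a level under 1 FPKM, and with 1 FPKM added its log2 ratios were -2.23 and not -3.45 for D90 over D15, and 3.12 and not 4.44 for D250 over D90. In Kashmiri cattle the same steps were 3.17-fold and 3.43-fold lower, then 1.98-fold and 2.65-fold higher. MUC1 was between 3.15 and 6.95 times the level of MUC15 in each group. In Jersey cattle at D90 MUC1 lay above only 17.5% of the names with at least 1 FPKM, and MUC15 was under that level.

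Together the 6 genes held 0.451%, 0.116% and 0.520% of all FPKM in the Kashmiri groups, and 0.213%, 0.123% and 0.250% in the Jersey groups, in order of day. Of 5 milk protein genes found, 4 were listed at 0 in 5 of the groups and none in Jersey D90, so the totals behind these shares do not hold the same genes. The 3 highest genes took between 92.3% and 96.0% of that sum in each group. XDH was the highest of them in Kashmiri cattle at D15 and D250, MFGE8 in Kashmiri cattle at D90, and PLIN2 in the 3 Jersey groups. MUC15 was the lowest in every group. FPKM is divided by transcript length, so levels of different genes may be set side by side, but no spread was known from which to tell neighbours in this order apart.

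The days were compared within each breed, with a gene counted when its log2 ratio, after 1 FPKM was added to both values, was at least 2 in size and its level at least 1 FPKM in either group. From D15 to D90 in Kashmiri cattle, 3 of 6 genes were past this limit and lower (XDH, PLIN2 and PLIN3), against 5.16% of 11297 names. From D15 to D90 in Jersey cattle, another 3 of 6 were (MFGE8, MUC1 and MUC15), against 3.78% of 11080 names. With FPKM rescaled to the sum without the milk protein genes, 2 of 6 were past it and lower in Kashmiri cattle. Of all names 7.14% were then past it in either direction, and PLIN3 had a plain log2 ratio of -2.04. All 6 genes were lower at D90 in both breeds, except that relative to the epithelial markers MFGE8, MUC1 and MUC15 in Kashmiri and XDH, PLIN2 and PLIN3 in Jersey cattle were higher. On that scale the median of all names was 1.37 in Kashmiri and 2.73 in Jersey cattle. Relative to those markers no gene was past the limit in Kashmiri cattle, against 25.7% of all names in either direction. In Jersey cattle 2 were past it and higher, against 73.1% of all names in either direction. The median log2 ratio of the 6 was -1.99 in Kashmiri and -1.84 in Jersey cattle, while that of all names was -0.01 and -0.07.

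From D90 to D250, 1 of 6 genes was past the limit and higher in Kashmiri cattle (XDH), against 0.859% of 11414 names. Relative to the epithelial markers none was, against 11.1% of all names in either direction. In Jersey cattle 4 of 6 were past it and higher (XDH, MFGE8, MUC1 and MUC15), against 3.72% of 10955 names. With the sum without milk protein genes, with the upper quartile or relative to the epithelial markers, 2 of 6 were. In that order, 3.07%, 3.29% and 20.3% of all names were past the limit in either direction. The median log2 ratio was 1.25 in Kashmiri cattle, against 0.03 over all names. It was 2.22 in Jersey cattle, against 0.15. Relative to the epithelial markers, PLIN3, MFGE8 and MUC1 in Kashmiri and PLIN2 and PLIN3 in Jersey cattle were lower at D250 than at D90. Between D15 and D250 no gene was past the limit in either direction, against 4.05% of 11487 names in Kashmiri and 12.6% of 11320 names in Jersey cattle. The median of the 6 genes over that span was -0.90 in Kashmiri and 0.51 in Jersey cattle. In Kashmiri cattle all 6 genes were lower at D250 than at D15, but XDH, MUC1 and MUC15 turned to log2 ratios of 0.68, 0.28 and 0.59 when rescaled to the sum without the milk protein genes, and XDH and MUC15 also turned relative to the epithelial markers.

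**Figure D2:**
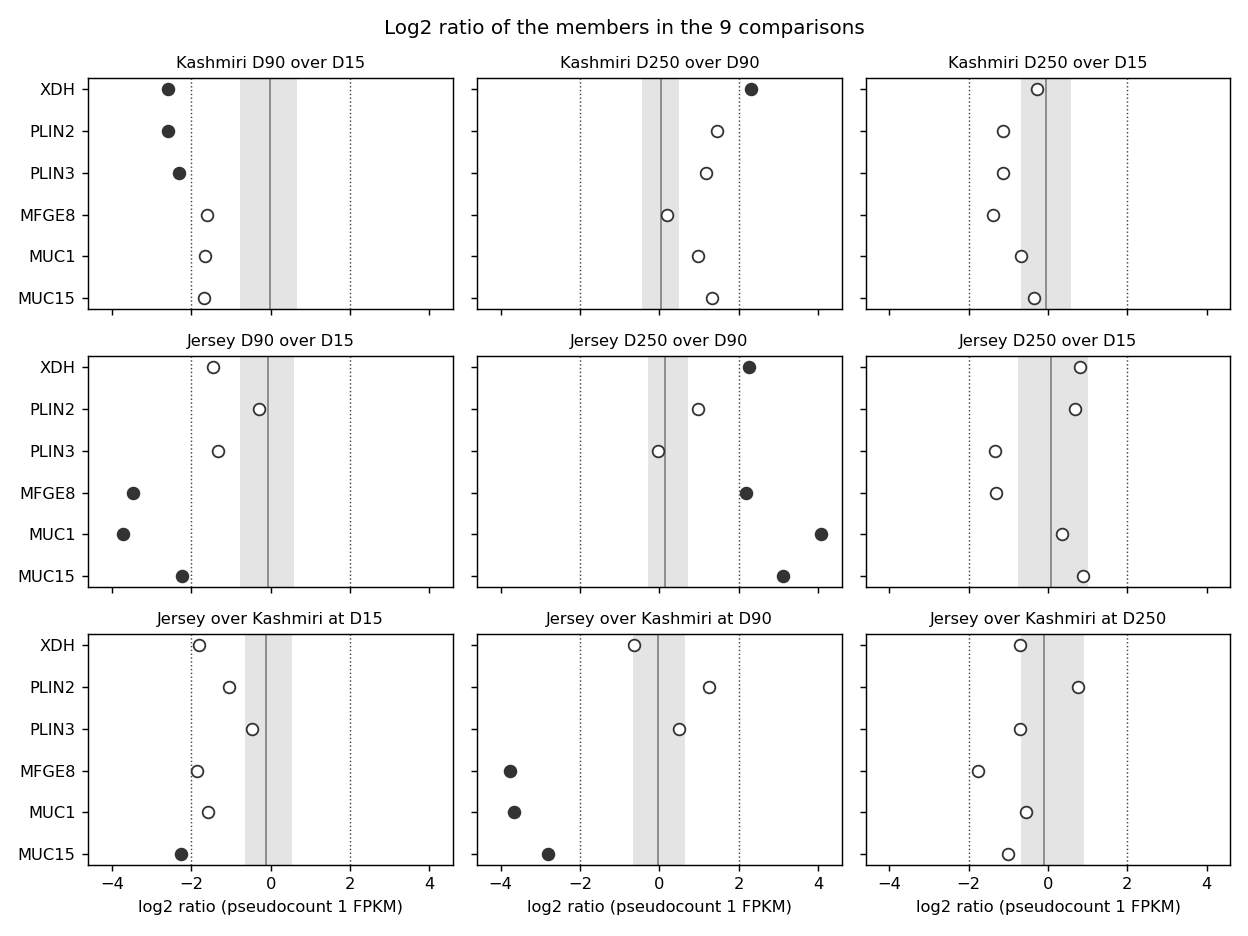
Log2 ratio (pseudocount 1 FPKM) of each gene in the 9 comparisons; filled points are past the limit of 2 (dotted lines), the grey line is the median and the grey band the middle 50% of all names tested. Among the filled points are XDH, PLIN2 and PLIN3 for Kashmiri D90 over D15, MFGE8, MUC1 and MUC15 for Jersey D90 over D15 and for Jersey over Kashmiri at D90, and these with XDH for Jersey D250 over D90; relative to the epithelial markers 19 of the 54 plain ratios have the other sign, and 4 do with the sum without milk protein genes.

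The breeds were compared on each day to see where the expression of Jersey and Kashmiri cattle parted. At D15, 1 of 6 genes was past the limit and lower in Jersey cattle (MUC15, 5.39-fold), against 2.12% of 11202 names. At D90, 3 of 6 were (MFGE8, MUC1 and MUC15), against 5.17% of 11209 names. The mucins were then 17.3-fold and 17.2-fold lower in Jersey cattle, while PLIN2 and PLIN3 were 2.38-fold and 1.44-fold higher. At D250 no gene was past the limit, against 12.3% of 11642 names in either direction. In order of day, the median log2 ratio of the genes was -1.69, -1.73 and -0.70, with -0.13, -0.03 and -0.10 over all names. Relative to the epithelial markers the median was -0.30 at D90 and 0.73 at D250, with 1.62 and 1.11 over all names. At D250 XDH, PLIN3, MUC1 and MUC15 changed sign on that scale. At D90 2 genes were past the limit and higher and 1 was past it and lower, against 36.9% of all names in either direction. The call of MUC15 at D15 was lost relative to the markers and with the sum without milk protein genes.

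The change from D15 to D90 was then set side by side in the breeds, as the log2 ratio in Jersey minus that in Kashmiri cattle. The difference was 1.14 for XDH, 2.30 for PLIN2 and 1.01 for PLIN3, which all lay further under D15 in Kashmiri cattle. It was -1.94 for MFGE8, -2.51 for MUC1 and -1.67 for MUC15, which all lay further under D15 in Jersey cattle. The 6 genes thus stood on 2 sides, the droplet coats with XDH and the outer coat with the mucins. As plain ratios, all 6 lay outside the middle 50% of 8732 names with at least 1 FPKM in each of the 4 groups, which ran from -0.58 to 0.53. PLIN2 was above 98.5% and MUC1 above 2.29% of them. MUC15 itself missed that minimum, with 0.592 FPKM in Jersey cattle at D90, so its place outside that range rests on a low value. With 1 FPKM added, its log2 ratios were -2.23 in Jersey and -1.68 in Kashmiri cattle, which lie closer together. For D250 over D90 the difference was -0.05 for XDH, -0.49 for PLIN2, -1.24 for PLIN3, 2.03 for MFGE8, 3.56 for MUC1 and 3.03 for MUC15. Rescaling a group adds the same amount to the difference of every gene, so it can move the signs but not the order of the genes.

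**Figure D3:**
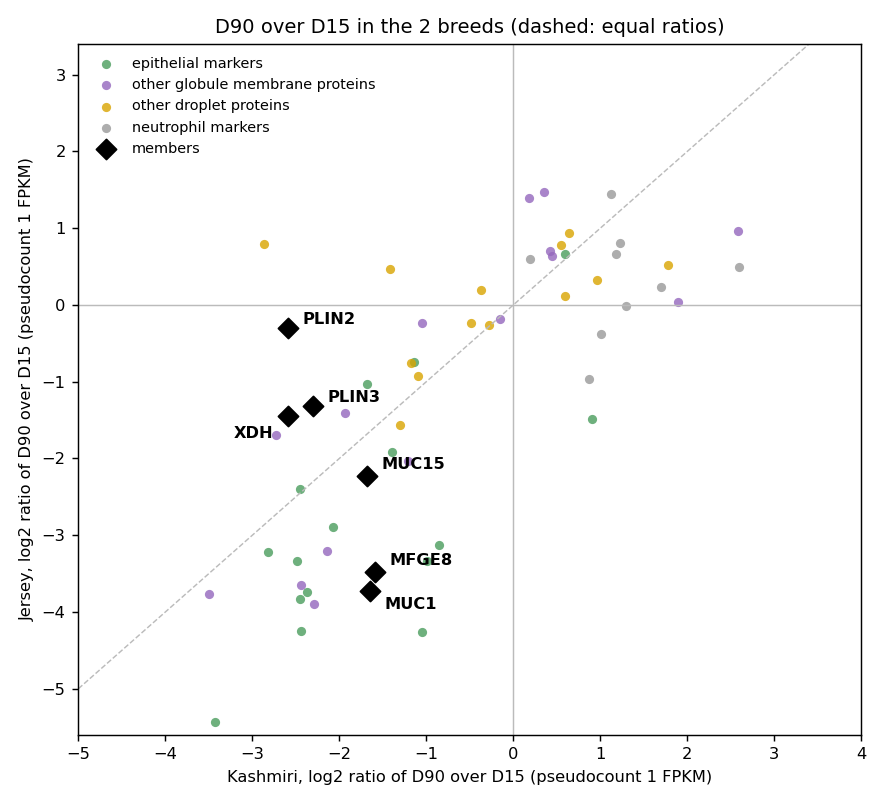
Log2 ratio (pseudocount 1 FPKM) of D90 over D15 in Kashmiri (x axis) and Jersey cattle (y axis); diamonds are the 6 genes, dots are epithelial markers, other globule membrane proteins, other droplet proteins and neutrophil markers, and the dashed line marks equal ratios. XDH, PLIN2 and PLIN3 lie above the dashed line and MFGE8, MUC1 and MUC15 below it, where most epithelial markers also lie.

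Markers of epithelial cells moved with these levels in part. All 16 epithelial markers were found, with sums from 120 FPKM (Jersey D90) to 4993 FPKM (Kashmiri D15). KRT18, the target of the capture antibody, had 51.3, 9.13 and 11.5 FPKM in the Kashmiri groups and 33.7, 1.59 and 4.51 FPKM in the Jersey groups. KRT8 had 55.5, 26.2 and 39.5 FPKM in the Kashmiri groups and 135, 6.07 and 13.8 FPKM in the Jersey groups. EPCAM had 28.5, 10.2 and 31.1 FPKM in the Kashmiri groups and 16.6, 3.67 and 7.54 FPKM in the Jersey groups. The geometric mean of the 14 markers with at least 1 FPKM in each group was 66.0, 18.4 and 45.0 FPKM in Kashmiri and 52.8, 4.83 and 16.5 FPKM in Jersey cattle. D90 was thus the lowest day for them too, with a log2 ratio to D15 of -1.84 for Kashmiri and -3.45 for Jersey cattle. From D15 to D250 in Jersey cattle the log2 ratio of the marker mean was -1.68. There PLIN3 and MFGE8 were also lower, but XDH, PLIN2, MUC1 and MUC15 were higher. The part of these markers in the results above was not tested.

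Other cell types were present by their markers. By PCR at D90, the paper found KRT18 and CSN2 higher in the captured cells than in milk cells before capture. LSP1, HBA and CD18 were lower, and the paper proposes that few other cells remained. That check compared cell preparations, whereas the levels below compare genes and groups. PTPRC, a leukocyte gene, had 68.7, 166 and 87.9 FPKM in Kashmiri and 60.0, 120 and 320 FPKM in Jersey cattle, above KRT18 in each group. KRT19, another epithelial marker, had 3195, 295 and 1319 FPKM in Kashmiri and 1687, 38.2 and 835 FPKM in Jersey cattle. It was above PTPRC in every group except Jersey D90. ITGB2 had 46.5, 153 and 64.1 FPKM in Kashmiri and 152, 179 and 164 FPKM in Jersey cattle. Sums of 9 neutrophil markers found of 12 were 361, 900 and 744 FPKM in Kashmiri and 5251, 5702 and 13751 FPKM in Jersey cattle. Sums of 11 macrophage markers of 12 were 137, 516 and 525 FPKM in Kashmiri and 1211, 2222 and 1989 FPKM in Jersey cattle. Both sums were thus higher in Jersey cattle on each day, but not every marker was, since LSP1 was lower at D90 (170 against 254 FPKM) and 4 of the 10 macrophage markers with at least 1 FPKM in a group compared were lower at D250 (C1QA, C1QB, C1QC and MSR1). Sums of 12 lymphocyte markers ran the other way, with 344, 1490 and 357 FPKM in Kashmiri and 266, 167 and 94.9 FPKM in Jersey cattle. Red cell markers (5 of 7 found) summed to at most 1.05 FPKM. The markers of fat and vessel cells (8 of 9 found) summed to between 18.7 and 336 FPKM, most of it FABP4, while ADIPOQ and LEP, which define fat cells, were at or near 0. CSN2, the gene of beta casein, was listed at 0 in 5 of 6 groups and at 1068 FPKM in Jersey D90, so the milk protein genes gave no usable check of secretory cells. The paper reports CSN2 among its most highly expressed genes in every group, so these zeros are not read as absence. The part of these cells in the results was not tested.

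The genes were also set against the epithelial markers of the same group. In Kashmiri cattle MUC1 was at 1.89 to 2.34 times the geometric mean of the markers, MUC15 at 0.529 to 0.599 times and MFGE8 at 8.63 to 18.4 times. MFGE8 was at 5.30, 4.99 and 6.84 times in Jersey cattle, under its Kashmiri value on each day. In Jersey cattle MUC15 was at 0.123 times the mean at D15 and at D90, and at 0.778 times the mean at D250. MUC1 went from 0.853 and 0.513 to 3.50 times the mean on the same days. The step from D15 to D90 in Jersey cattle, 18.1-fold and 10.9-fold lower for MUC1 and MUC15 in FPKM, was thus a log2 ratio of -0.73 and -0.00278 relative to the markers.

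XDH and PLIN2 were also above the marker mean in every group. PLIN2 was at 20.6, 12.2 and 13.8 times the marker mean in Kashmiri cattle, and at 12.5, 111 and 63.7 times it in Jersey cattle. XDH was at 29.6, 17.6 and 35.6 times in Kashmiri and at 10.6, 42.5 and 59.8 times in Jersey cattle. PLIN3 was at 1.56, 1.09 and 1.04 times in Kashmiri and at 1.40, 6.01 and 1.72 times in Jersey cattle. Relative to the markers, all 3 genes were therefore higher at D90 than at D15 in Jersey cattle and lower in Kashmiri cattle. Most names were higher on that scale, with a median log2 ratio of all names of 2.73 in Jersey and 1.37 in Kashmiri cattle. In Jersey cattle XDH and PLIN3 lay under that median and PLIN2 lay above it. In Kashmiri cattle all 3 genes lay under it. PLIN2 and PLIN3 are also known from macrophages, whose summed markers were higher in the Jersey groups; that part of the result was not tested.

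**Figure D4:**
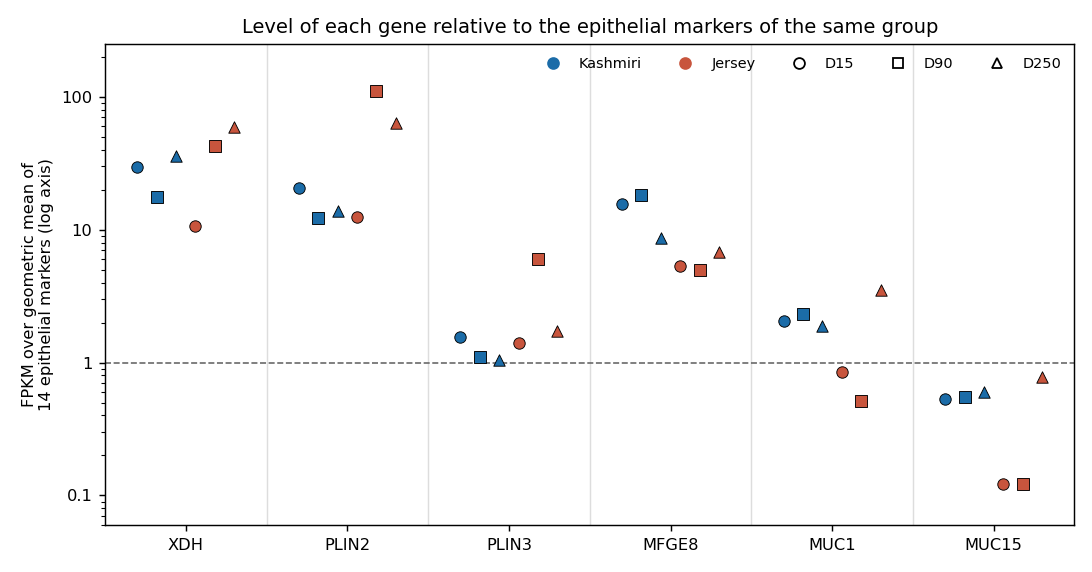
FPKM of each gene divided by the geometric mean of 14 epithelial markers of the same group (log axis); blue is Kashmiri and red Jersey cattle, circles are D15, squares D90 and triangles D250, and the dashed line is a ratio of 1. PLIN2 in Jersey cattle at D90 reaches 111, while MUC1 and MUC15 of Jersey D15 and D90 lie under all Kashmiri values.

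Other proteins found in the globule membrane were followed from a list of 19, of which 15 were found. From D15 to D90, 5 of 15 were past the limit and lower in Kashmiri (ABCG2, FABP3, FOLR1, PIGR and SLC34A2) and 5 of 15 in Jersey cattle (ABCG2, FABP3, FOLR1, PIGR and MUC20), while STOM was higher in Kashmiri cattle. Of all names, 5.16% and 3.78% were past the limit and lower, and 2.34% were higher in Kashmiri cattle. Among epithelial markers, 8 of 15 in Kashmiri and 11 of 16 in Jersey cattle were past it and lower. From D90 to D250 none of the 15 globule membrane genes was past the limit in Kashmiri cattle, against 1.98% of all names in either direction. In Jersey cattle 5 of the 15 were past it and higher (ABCG2, FABP3, FOLR1, PIGR and SLC34A2), against 3.72% of all names. FABP3, a fatty acid carrier of the mammary cell, had the highest mean of the list. Its levels were 10561, 2159 and 6721 FPKM in Kashmiri and 2454, 164 and 1529 FPKM in Jersey cattle. FOLR1, a folate receptor, had 543, 47.3 and 132 FPKM in Kashmiri and 48.8, 2.67 and 54.2 FPKM in Jersey cattle. CD81, a tetraspanin of many cell types, took another course, with 404, 459 and 217 FPKM in Kashmiri and 401, 1056 and 1653 FPKM in Jersey cattle.

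Other droplet proteins did not share one pattern. Of 19 listed, 18 were found and 13 had at least 1 FPKM at D15 or D90, and their median log2 ratio of D90 over D15 was -0.37 in Kashmiri and 0.19 in Jersey cattle. PLIN1, PLIN4, PLIN5 and CIDEC, coat and fusion proteins of fat cells and muscle, had at most 0.198 FPKM in any group. AUP1, a droplet protein of protein quality control, had 53.2 to 106 FPKM over the groups. PNPLA2, the lipase that opens triglyceride breakdown, had 41.7, 16.3 and 24.2 FPKM in Kashmiri and 14.4, 4.20 and 13.4 FPKM in Jersey cattle. G0S2, an inhibitor of that lipase that leukocytes also express, had 157, 20.7 and 25.9 FPKM in Kashmiri and 938, 1632 and 5758 FPKM in Jersey cattle. It was the single gene of the 13 past the limit from D15 to D90, lower and in Kashmiri cattle alone, against 5.16% of all names.

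SNARE proteins and their partners fuse vesicles with membranes. Of 14 listed, 13 were found, and their median log2 ratio of D90 over D15 was -0.30 in Kashmiri and 0.01 in Jersey cattle. Of the 13, VAMP8 and STX3 were past the limit and lower in Kashmiri cattle, against 5.16% of all names. SNAP23 was past it and higher in Jersey cattle, against 2.98% of all names. VAMP8, a SNARE of regulated secretion, had 357, 88.5 and 133 FPKM in Kashmiri and 338, 91.5 and 91.9 FPKM in Jersey cattle. STX3, a syntaxin of apical membranes, had 54.3, 6.72 and 19.7 FPKM in Kashmiri and 14.2, 8.38 and 21.2 FPKM in Jersey cattle. The levels of SNAP23 were 2.74, 5.54 and 11.9 FPKM in Kashmiri and 2.29, 13.2 and 19.9 FPKM in Jersey cattle. STXBP2, a syntaxin partner, stayed between 46.0 and 88.0 FPKM.

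Enzymes that work with XDH and receptors that bind lactadherin were followed as well. Of 10 genes of the molybdenum cofactor and of purine breakdown, 7 were found. GPHN, which builds the cofactor that XDH needs, had 13.8, 1.99 and 8.14 FPKM in Kashmiri and 3.33, 2.92 and 6.29 FPKM in Jersey cattle. It was the only one of the 7 past the limit from D15 to D90, lower and in Kashmiri cattle, against 5.16% of all names. MOCS2, another gene of the cofactor, had 27.4, 14.8 and 35.6 FPKM in Kashmiri and 9.76, 6.48 and 24.5 FPKM in Jersey cattle, so D90 was its lowest day in both. ADA, adenosine deaminase, had 7.72, 20.3 and 10.6 FPKM in Kashmiri and 37.2, 14.6 and 8.30 FPKM in Jersey cattle. Of 8 lactadherin receptors and related ligands, 7 were found, at no more than 32.6 FPKM. None was past the limit from D15 to D90, against 7.5% of all names in Kashmiri and 6.76% in Jersey cattle in either direction. GAS6, a ligand of the receptor MERTK, had 5.33, 24.2 and 10.7 FPKM in Kashmiri and 32.6, 22.4 and 6.02 FPKM in Jersey cattle. MERTK, a receptor for the uptake of dying cells, had 1.10, 3.89 and 7.08 FPKM in Kashmiri and 8.07, 12.7 and 13.1 FPKM in Jersey cattle. The levels of ITGB5, an integrin subunit, were 1.91, 6.08 and 8.77 FPKM in Kashmiri and 10.1, 4.97 and 3.57 FPKM in Jersey cattle.

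Of 12 regulators of the secretory cell, 10 were found. ELF5, a transcription factor of the milk-producing cell, had 1799, 206 and 770 FPKM in Kashmiri and 338, 12.6 and 349 FPKM in Jersey cattle. XBP1, a transcription factor of the secretory pathway, had 256, 321 and 137 FPKM in Kashmiri and 172, 178 and 116 FPKM in Jersey cattle. From D15 to D90, ELF5 and NFIB were past the limit and lower in both breeds, among 8 regulators with at least 1 FPKM on either day. Of all names 5.16% in Kashmiri and 3.78% in Jersey cattle were past it and lower. PPARG was past it and higher in Kashmiri cattle, against 2.34% of all names. PPARG had 0.258 FPKM at D15 and 6.02 FPKM at D90 in Kashmiri cattle. Genes named from these counts beyond the named genes rule were chosen after their values were seen.

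The genes most like XDH and PLIN2 over the 6 groups were sought among 6173 genes with a symbol and at least 10 FPKM in a group, by Pearson's r of log2(FPKM + 1). For XDH they were NFIX, with r of 0.994, ASB8, with 0.993, and GPT2, with 0.986, and 35 genes had r of at least 0.95. For PLIN2 they were PACSIN2, with r of 0.983, LIG3, with 0.976, and TRAPPC2L, with 0.972, and 11 genes had r of at least 0.95. By Spearman's rho, 56 genes were tied at 1 with XDH and 5 with PLIN2. Among the 6 genes themselves r was highest for MUC1 and MUC15, at 0.984, and lowest for PLIN2 and MFGE8, at 0.190. XDH had r of 0.845 with MUC1, 0.876 with MUC15 and 0.695 with PLIN2. These values describe 6 points that share breeds, days, cell mixtures and the scaling of each group.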

How the data were processed

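Stranded mRNA libraries of milk epithelial cells were trimmed by the authors (Trimmomatic) and mapped to UMD3.1, the bovine genome build, by Bowtie2 with TopHat, before Cufflinks assembly and quantification by Cuffdiff. The deposited values are FPKM, 1 per combination of breed and day, and were used as given. The paper lists reads for each library, but under names that give neither breed nor day. The depth behind each group value was thus not known and no interval was computed, and with 1 value per group no test was run. How Cuffdiff combined the cows of a group cannot be seen from the values. Of 61264 entries, 25121 carried a name. Where names repeated, the entry of highest mean FPKM stood for the gene.

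Single ratios are plain ratios of FPKM. Counts and medians used log2 ratios with a pseudocount of 1 FPKM, an absolute value of at least 2 and at least 1 FPKM in either group, beside the share of all names past the same limit. In 9 comparisons, the later day was set over the earlier and Jersey over Kashmiri. The genes and lists were chosen with earlier results of these data known. By rule the genes to name were the members, the 3 genes most like XDH, BTN1A1 and PLIN2, and markers for cell checks. Of each list they were the 2 genes with the highest mean FPKM and, in each breed, the gene with the largest log2 ratio of D90 over D15. The cell type and milk protein lists were mostly not given gene by gene, so most of their genes under this rule are not named. Alternatives were a pseudocount of 0.1 FPKM, a minimum of 0.01 FPKM, a limit of 1, summed repeated names, and FPKM rescaled to the sum without the milk protein genes, to the upper quartile or to the epithelial markers. Scripts ran in Python 3.11.15 with numpy 2.4.6, pandas 2.3.3 and matplotlib 3.10.9, and were checked on simulated data. Promoters and proteins were not analysed here.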

Additional observations from a re-analysis of the deposited data

Results flagged for a closer look

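In 9 cases a log2 ratio had opposite signs in the groups compared. None of these differences was tested, since each group has 1 value. For D250 over D15, Jersey minus Kashmiri cattle gave 1.10 for XDH (0.81 in Jersey and -0.28 in Kashmiri cattle), 1.81 for PLIN2 (0.67 and -1.13), 1.04 for MUC1 (0.36 and -0.68) and 1.36 for MUC15 (0.98 and -0.37). For D250 over D90, PLIN3 gave -1.24 (-0.03 in Jersey and 1.21 in Kashmiri cattle). For Jersey over Kashmiri cattle, PLIN2 gave 2.30 for D90 minus D15 (1.25 and -1.04) and 1.81 for D250 minus D15 (0.76 and -1.04). PLIN3 gave 1.01 for D90 minus D15 (0.53 and -0.48) and -1.24 for D250 minus D90 (-0.72 and 0.53). The pairs of equal size are the same 4 values taken in another order. The signs stayed opposite in 9 of 9 cases with the upper quartile, in 5 with the sum without milk protein genes and in 5 relative to the epithelial markers. With the sum, D250 over D15 in Jersey and Kashmiri cattle was 0.58 and 0.68 for XDH, 0.13 and 0.28 for MUC1 and 0.75 and 0.59 for MUC15, and PLIN2 for Jersey over Kashmiri was -0.02 at D250 and -0.63 at D15. Relative to the markers, D250 over D15 was 2.49 and 0.27 for XDH and 2.66 and 0.18 for MUC15, D250 over D90 was -1.80 and -0.08 for PLIN3, and PLIN3 for Jersey over Kashmiri was 0.73 at D250 and 2.46 at D90.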

How the results depend on the processing

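Counts of the 6 genes past the limit and their median log2 ratios were unchanged, within a factor of 1.5 or within 0.58 with the same sign, with a pseudocount of 0.1 FPKM, a minimum of 0.01 FPKM or summed repeated names, in all 9 comparisons. With a limit of 1, which 17.7% to 42.4% of all names passed in either direction, the counts were 6 and not 3 for Kashmiri D90 over D15, 4 and not 1 for D250 over D90 and 3 and not 0 for D250 over D15. In Jersey cattle they were 5 and not 3 for D90 over D15 and 2 and not 0 for D250 over D15, and for Jersey over Kashmiri 5 and not 1 at D15 and 2 and not 0 at D250. FPKM rescaled to the sum without the milk protein genes gave 2 and not 3 for Kashmiri D90 over D15 and 2 for Kashmiri D250 over D90. It gave 2 and not 4 for Jersey D250 over D90, and for Jersey over Kashmiri 0 at D15 and 1 at D250. Its medians were 1.88 and not 1.25 for Kashmiri D250 over D90, 0.055 and not -0.90 for Kashmiri D250 over D15, and -1.47 and not -0.70 for Jersey over Kashmiri at D250. The upper quartile gave 2 for Jersey D250 over D90 and 1 for Jersey over Kashmiri at D250. Of all names 3.29% and 10.8% were past the limit in either direction.

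FPKM divided by the epithelial markers moved most. Calls turned for Jersey D90 over D15, from 3 lower to 2 higher, and for Jersey over Kashmiri at D90, from 3 lower to 2 higher and 1 lower. In either direction, 73.1% and 36.9% of all names were past the limit there. Counts were 0 for Kashmiri D90 over D15 and D250 over D90, 2 for Jersey D250 over D90, 3 for Jersey D250 over D15, and for Jersey over Kashmiri 0 at D15 and 1 at D250. Of all names 25.7%, 11.1%, 20.3%, 30.9%, 8.15% and 26.9% were past it in either direction, in that order. Medians were -0.22 and 0.016 for Kashmiri D90 over D15 and D250 over D90, 1.00, 0.47 and 2.16 for Jersey D90 over D15, D250 over D90 and D250 over D15, and -0.30 and 0.73 for Jersey over Kashmiri at D90 and D250. Those of all names were 1.37 and -1.03, then 2.73, -1.37 and 1.34, then 1.62 and 1.11. These scalings moved the median of all names by -0.65 to 0.82 (sum), -0.42 to 0.25 (upper quartile) and -1.52 to 2.79 (epithelial markers) in log2. Of 54 single ratios, 4 changed sign with the sum, 0 with the upper quartile and 19 with the epithelial markers. Of 270 single values under the alternatives, 205 were unchanged. With a pseudocount of 1 FPKM the MUC15 log2 ratios moved to -2.23 from -3.45 (Jersey D90 over D15), to 3.12 from 4.44 (Jersey D250 over D90) and to -2.81 from -4.10 (Jersey over Kashmiri at D90). The cause was not tested.

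No paired analysis was possible because the values used hold 1 number per group, so the replicate numbers of the labels have no values of their own. Leaving out each replicate in turn could not be run for the same reason.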
